A study of Mus musculus with 199 samples.

Results

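Nov (also called Ccn3) and the other 5 genes of the CCN family, Ctgf (Ccn2), Cyr61 (Ccn1), Wisp1 (Ccn4), Wisp2 (Ccn5) and Wisp3 (Ccn6), were followed through 199 RNA-seq libraries made from mouse cells of small-cell lung cancer and of a pre-cancerous line. They are 6 of the 31581 genes of the deposited count table and were found there by symbol. Nov, and with it the family, was chosen by measured values, namely its low level in liver captures of the F1 host against spheroid captures, so its group levels and folds in the laser captures are a description here, with no test. Its spread and its relations to other measures within a group are measures other than these levels and folds, and are tested. The pools hold the same conditions and their values were known too, so the folds of Nov there are described in the same way.

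The series took KP1, a mouse small-cell lung cancer line whose labelled genotype is Rb1-/-Trp53-/-, and compared spheroids in culture with the same cells growing in liver. The hosts were nude mice (immunocompromised) and F1 mice (immunocompetent). Each small library came from 10 cells, taken by laser from 8 µm cryosections, with cDNA from their polyadenylated RNA amplified by PCR before tagmentation. There were 28 spheroid captures, 33 nude liver captures and 31 F1 liver captures, and pool-and-split controls, called pools here, numbered 20, 35 and 24 for the same conditions. A further 24 spheroid captures came from RPC, a pre-cancerous line labelled Rb1-/-Trp53-/-p130-/+Crebbp-/-. One bulk library each was made by another protocol, from 500 ng of total RNA, for spheroids of KP1, of KP3 (Rb1-/-Trp53-/-Axin2+/lacz), of KP5 (Rb1-/-Trp53-/- BAT-GAL) and of KP2 (Rb1-/-Trp53-/-Ptch1+/lacz). All groups thus lack Rb1 and Trp53, and each line stands for itself alone. The 2 hosts differ in stock as well as in immune state, which cannot be told apart. The labels give no age, animal, culture or section, so p-values measure only the spread between libraries, which may in part be technical. The pools are named as splits of pooled material, from an unknown number of pools and animals. For every gene tested in them, a p therefore covers the noise between splits, not that between animals or cultures.

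CCN proteins are secreted, cysteine-rich matricellular proteins: they sit in the extracellular matrix without being a structural part of it, and bind integrins, heparan sulphate proteoglycans and growth factors. Most are built from an IGFBP-like, a von Willebrand factor C, a thrombospondin type 1 and a C-terminal cystine knot module. Cyr61 and Ctgf are the textbook targets of the Hippo pathway effectors YAP and TAZ with TEAD factors, and in liver they are made by stellate cells and other stromal cells. Nov is known for effects on cell growth that are often opposite to those of Ctgf, and has been described as a binding partner of Notch1.

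In the table's GRCm38 coordinates, Nov lies on chromosome 15 at 54745702 to 54754039 on the plus strand, with 5 exons and 2869 exonic bases. Wisp1 is on the same chromosome at 66891320 to 66923201, Ctgf on chromosome 10 at 24595442 to 24598683, Cyr61 on chromosome 3 at 145646976 to 145649981 and Wisp2 on chromosome 2 at 163820861 to 163833146. Wisp3, on chromosome 10 at 39150970 to 39163794, overlaps Tube1. The family is old and its coding sequences have drifted apart: aligned end to end with Nov, identity was 62.8% for Ctgf, 55.7% for Cyr61, 53.7% for Wisp1, 44.9% for Wisp2 and 51.3% for Wisp3. The sequences below are shown because they bear on whether reads of one member could be counted for another. They are the 45 coding bases at which Nov is most like the other 5, from GENCODE M21 transcripts, each within 1 exon that encodes the IGFBP-like module. Capitals mark bases that differ from Nov.
Nov, chr15:54746235-54746279, plus strand: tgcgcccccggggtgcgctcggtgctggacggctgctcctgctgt
Ctgf, chr10:24595936-24595980, plus strand: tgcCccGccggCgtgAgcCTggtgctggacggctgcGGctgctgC
Cyr61, chr3:145649340-145649384, minus strand: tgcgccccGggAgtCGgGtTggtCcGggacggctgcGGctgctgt
Wisp1, chr15:66906515-66906559, plus strand: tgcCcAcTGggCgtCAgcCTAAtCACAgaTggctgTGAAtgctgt
Wisp2, chr2:163825195-163825239, plus strand: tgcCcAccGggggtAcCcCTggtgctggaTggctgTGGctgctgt
Wisp3, chr10:39158380-39158424, minus strand: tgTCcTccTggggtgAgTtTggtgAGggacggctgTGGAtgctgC
Even here the other members differ from Nov at 9 bases (Ctgf), 10 (Cyr61), 20 (Wisp1), 11 (Wisp2) and 14 (Wisp3). No stretch of 31 bases was shared between transcripts of any 2 members. Of the 31-base stretches of Nov, 1.49% occur in transcripts of other genes. The share was 19.7% for Ctgf and 32.7% for Wisp3, the latter all with Tube1, so the counts of Wisp3 are uncertain.

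Counts assigned to genes ranged from 718208 to 7557773 per small library and from 17266200 to 42447973 per bulk library. Levels are CPM, each count scaled to a common library total, without the 92 spike-in (ERCC) rows. Set against the labelled cell type, each of 12 neuroendocrine markers had counts in the KP1 captures of every condition and in the RPC captures. The liver captures also carried liver RNA. The summed level of 12 hepatocyte markers ran from 33.4 to 4107 CPM in nude liver captures and from 0 to 1642 CPM in F1 liver captures, against 0 to 83.6 CPM in spheroid captures, where 8 of the 12, Alb among them, had no count. Libraries also fell into sets by value. Among spheroid libraries, 9 captures and 6 pools had at least 0.1% ERCC counts, and among F1 libraries 5 captures and 5 pools had a low level of the pseudogene Rpl19-ps11, under 150 CPM. The labels do not name these sets.

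Nov was abundant in all 4 bulk libraries. It stood at 2819 CPM in KP1, 2481 CPM in KP3, 1520 CPM in KP5 and 1290 CPM in KP2. With 1 library a line, no error can be given for these levels, and with TMM scaling each was lower (closing section). Per kilobase of exon, Nov exceeded Wisp3, the next member by level per kilobase, by 446-fold in KP1, 815-fold in KP3, 614-fold in KP5 and 645-fold in KP2. Over Ctgf, again per kilobase, the excess was 9708-fold in KP1, 4257-fold in KP3 and 1241-fold in KP2. In KP5 Ctgf had no count, which allows up to 0.0988 CPM (3 counts). The spheroid lines thus held Nov and only traces of the other members.

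In KP1 spheroid captures every library had Nov counts, with a lowest value of 117 CPM, a median of 335 CPM and a highest of 1507 CPM (442 ± 328 CPM, SD, n = 28). The spheroid pools spanned 167 to 783 CPM with a median of 447 CPM (456 ± 197, n = 20). The 2 kinds of spheroid library overlap, with 4 captures, of 824, 977, 1235 and 1507 CPM, above the highest pool. Nude liver captures ran from 0 to 82.2 CPM with a median of 22.3 CPM (27.2 ± 24.9, n = 33), and nude liver pools from 0 to 103 CPM with a median of 4.48 CPM (11.9 ± 20.6, n = 35). F1 liver captures ran from 0 to 64.9 CPM with a median of 2.79 CPM (8.88 ± 15.1, n = 31), and F1 liver pools from 0 to 40.7 CPM with a median of 0 (5.84 ± 12.2, n = 24). Nov counts were present in 32 of 33 nude liver captures, 28 of 35 nude liver pools, 27 of 31 F1 liver captures and 11 of 24 F1 liver pools. RPC spheroid captures spanned 0 to 173 CPM with a median of 32.3 CPM (43.5 ± 40.1, n = 24), and 23 of the 24 had counts. By mean level the order was spheroid pools and captures, then RPC captures, nude liver captures, nude liver pools, F1 liver captures and F1 liver pools. Of neighbours in that order, only KP1 spheroid captures and RPC captures have means further apart than the larger of their 2 SDs.

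**Figure D1:**
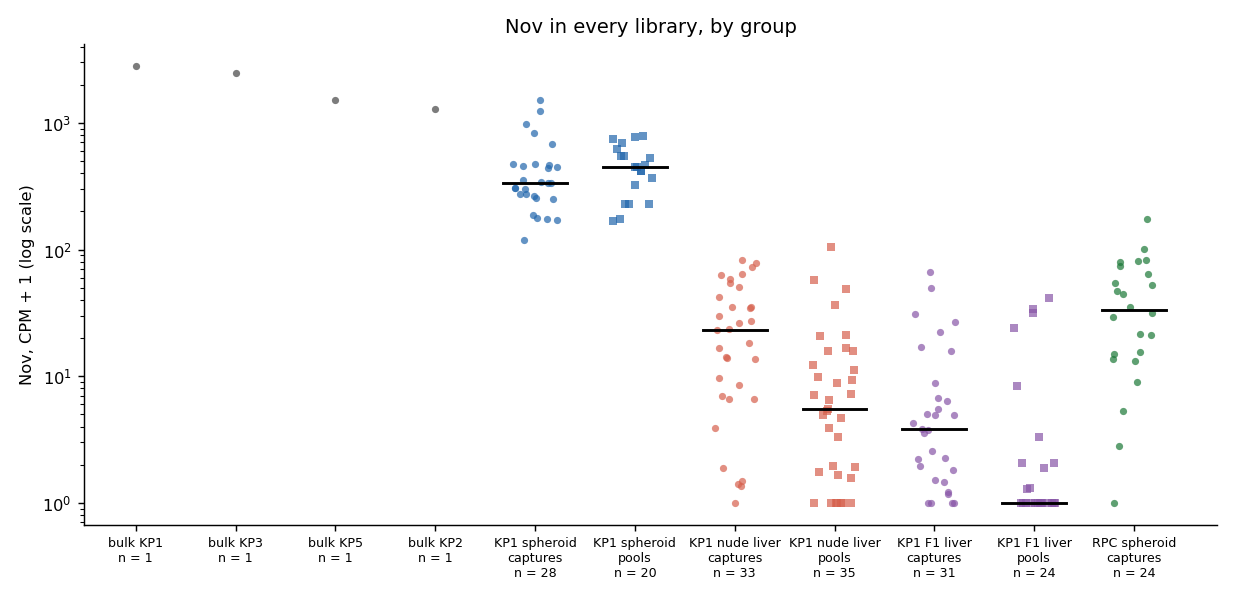
Nov in every library as CPM + 1 on a log axis, by group; circles are captures or bulk libraries, squares are pools, and black bars are group medians. The spheroid captures (117 to 1507 CPM) and pools lie above every liver library, and the median of the F1 liver pools is 0.

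In nude liver captures Nov was 16.2-fold lower by mean CPM than in spheroid captures. The log2 fold change was -4.25 (SE 0.40, edgeR), beside a median of -0.04 over all 7834 genes tested, of which 16.3% were called lower. The highest nude liver capture (82.2 CPM) lay below the lowest spheroid capture (117 CPM), and Nov was the 1 gene of those tested, 0.0128%, whose CPM did not overlap between the 2 groups. In bulk tissue or small captures alike, fewer cells of a type and less RNA of a gene per cell cannot be told apart. In F1 liver captures Nov was 49.8-fold lower than in spheroid captures, with a log2 fold change of -5.57 (SE 0.52) beside a median of 0.22 over 7309 genes, of which 4.91% were called lower and 7.73% higher. Again the groups did not overlap, which held for 2 genes, 0.0274% of those tested. Both comparisons use the same spheroid captures. Markers of liver and blood moved with the contrast. Of the endothelial list, Pecam1 (5.17, SE 0.68) and Vwf (2.59, SE 0.48) were called higher in nude and Vwf (1.66, SE 0.49) in F1 liver captures. Vwf also had counts in 27 of 28 spheroid captures. Hbb-bs, a beta globin of red cells, had counts in 1 of 28 spheroid captures and averaged 315 ± 408 CPM in nude and 2326 ± 3479 CPM in F1 liver captures. The sum of 5 erythrocyte markers ran from 0 to 31.3 CPM in spheroid captures, where Alas2 and Hbb-bt had no count, from 0.59 to 3743 CPM in nude and from 0 to 32920.5 CPM in F1 liver captures. The ERCC share, which depends on the RNA that entered a library and on the spike-in added, differed too. It had medians of 0.0047% in spheroid, 0.97% in nude liver and 2.16% in F1 liver captures, and reached 1.36% among the spheroid captures. The part of red and endothelial cells and of the ERCC share in the Nov difference was not tested. With the mean log2 level of the hepatocyte markers in the model, the Nov fold change was -4.59 in nude and -5.18 in F1 liver captures. That score was 0 to 0.87 in spheroid captures, 0.68 to 6.33 in nude and 0 to 5.50 in F1 liver captures. In nude livers the fit can thus hardly tell the score apart from condition, for Nov or for the genes below. A value kept or a call lost there does not give the part of hepatocyte RNA. Against the 9 spheroid captures with at least 0.1% ERCC and the other 19, the Nov fold change was -4.03 and -4.35 in nude captures. In F1 liver captures it was -5.33 and -5.72.

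The pools showed the same direction. In nude liver pools the log2 fold change of Nov against spheroid pools was -4.98 (SE 0.56, edgeR), where 9.13% of 8010 genes were called lower and 16.5% higher. The highest of 35 nude liver pools was 103 CPM and the lowest of 20 spheroid pools 167 CPM, so that the groups did not overlap, as for 0.0499% of genes in this direction. In F1 liver pools it was -5.63 (SE 0.87), where 2.65% of 7249 genes were called lower and 8.94% higher. These groups did not overlap either, as for 0.0552% of genes in this direction and 0.0828% in either. The pools are other libraries than the captures, but may come from the same animals and cultures, which the labels do not say, and both comparisons share the spheroid pools. Summed hepatocyte markers were 134 to 4158 CPM in nude liver pools and 0 to 62.0 CPM in spheroid pools. With their score in the model the fold change of Nov in nude liver pools was -4.59, and its SE rose to 2.26. The score was 0 to 0.58 in spheroid and 1.87 to 5.47 in nude liver pools, so it splits these 2 groups as condition does. In F1 liver pools the fold change with the score was -8.24 (SE 1.54). The erythrocyte sum was 0 to 0.43 CPM in spheroid pools, 171 to 9355 CPM in nude and 1.01 to 20603 CPM in F1 liver pools. The ERCC share was 0 to 1.78% in spheroid pools (median 0.0027%), 1.75 to 31.2% in nude (median 5.94%) and 2.12 to 20.7% in F1 liver pools (median 13.2%). Every F1 pool thus lay above every spheroid pool in ERCC share, so that this share and condition cannot be told apart there.

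**Figure D2:**
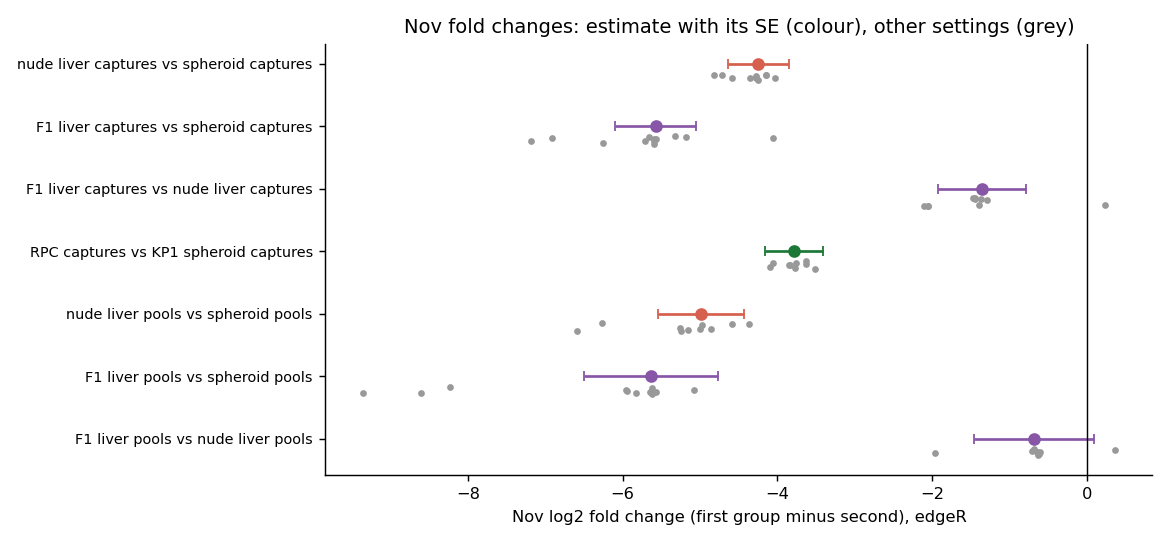
Log2 fold change of Nov (first group minus second, edgeR) in 7 comparisons; coloured points are the estimates with their SE, grey points the same value under other settings. The 4 liver against spheroid comparisons lie between -4.25 and -5.63, and only the 2 comparisons of F1 with nude livers have a grey point above 0.

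Between the hosts the difference was smaller. Nov was 3.06-fold lower in F1 than in nude liver captures by mean CPM, with a log2 fold change of -1.36 (SE 0.57) beside a median of 0.26 over 7064 genes, of which 7.98% were called lower. The 2 groups overlapped over nearly their whole range. The fold differed between the sets of F1 libraries. The 26 F1 captures with high Rpl19-ps11 had 0 to 25.9 CPM (4.47 ± 6.60) and gave -2.06, whereas the 5 with low Rpl19-ps11 had 0.82, 14.7, 30.2, 48.5 and 64.9 CPM (31.8 ± 25.6) and gave 0.24. The 2 sets overlapped, with 3 of the 5 above the highest of the 26. Other markers differed between the hosts too: Hbb-bs was higher in F1 captures (3.29, SE 0.73, edgeR adjusted p = 0.00064) and Alb lower (-1.80, SE 0.63, edgeR adjusted p = 0.0341). All 4 globin genes tested were called higher, but the near-identical Hba-a1 and Hba-a2 were -0.70 and -0.37 with the 5 low Rpl19-ps11 captures alone, where none of the 4 was called. With the replicate block Hbb-bs was not called either (3.23, adjusted p = 0.051), and Alb was not called within either set. Epcam, on the cholangiocyte list, was higher in F1 captures (3.56, SE 0.73, edgeR adjusted p = 0.00018). It had counts in bulk KP1 and in KP1 spheroid captures as well. Krt19 and Cldn4 of that list had no count in captures of either host, so Epcam does not mark cholangiocytes here. The part of red cells and hepatocytes in the host difference of Nov was not tested. In pools the log2 fold change of F1 against nude was -0.68 (SE 0.78), where 3.79% of 6010 genes were called lower and 8.20% higher. Among F1 pools the means of the 2 sets, 5.58 ± 11.9 (n = 19) and 6.81 ± 14.6 CPM (n = 5), did not pass the test (exact permutation test, two-sided, adjusted p = 0.815 over 4 comparisons of sets). Against spheroid pools these sets gave -5.62 and -5.64. The direction of the host difference in captures thus changed with the set of F1 libraries used.

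**Figure D3:**
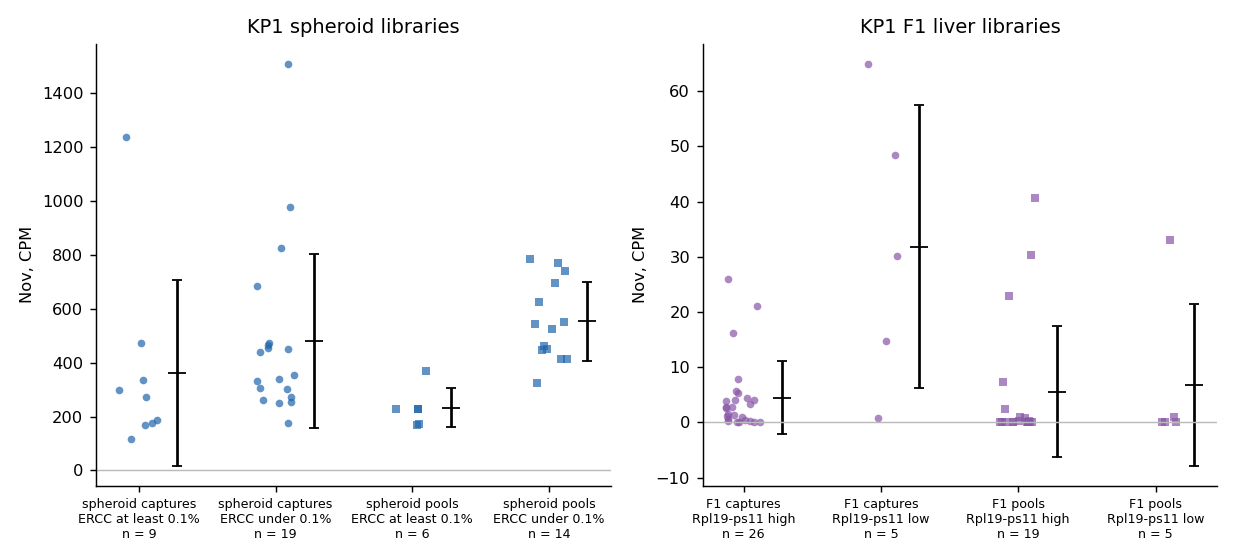
Nov CPM per library on linear axes, with spheroid libraries divided by their share of ERCC counts (left) and F1 liver libraries by Rpl19-ps11 level (right); bars are mean ± SD. Spheroid pools with at least 0.1% ERCC average 232 CPM against 552 CPM in the others, and the 5 F1 captures with low Rpl19-ps11 average 31.8 CPM against 4.47 CPM.

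The spheroid libraries had a division of their own. The 6 spheroid pools with at least 0.1% ERCC had 167 to 369 CPM of Nov (232 ± 72.4) and the other 14 had 323 to 783 CPM (552 ± 147), with 1 of the 6 within the range of the 14. The difference passed an exact permutation test (adjusted p = 0.000516 over 4 comparisons of sets, chosen after the values were seen). In spheroid captures the means were 362 ± 344 CPM (n = 9) and 480 ± 323 CPM (n = 19), and the 2 sets overlapped. Both sets of pools lay above all liver pools, so the direction of the liver against spheroid fold is the same in each (-4.37 and -5.15 for nude, -5.08 and -5.83 for F1 pools).

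RPC captures had 10.2-fold less Nov by mean CPM than KP1 captures, both grown as spheroids. The log2 fold change was -3.78 (SE 0.37), beside a median of 0.01 over 8600 genes, of which 11.6% were called lower and 10.3% higher. The ranges touched: 1 RPC capture, at 173 CPM, lay above the lowest KP1 value, and 2 KP1 captures lay below it. The fold change was -3.52 against the 9 KP1 captures with at least 0.1% ERCC and -3.85 against the other 19. Krt7, of the cholangiocyte list but with counts in 27 of 28 KP1 captures, was lower in RPC captures too (-2.45, SE 0.59, edgeR adjusted p = 0.0013). So was Des, of the stellate list, from 60.0 ± 52.5 to 0.16 ± 0.80 CPM (-8.33, SE 0.82, edgeR adjusted p = 5.17e-13). Vwf, of the endothelial list, was higher (1.48, SE 0.55, edgeR adjusted p = 0.0455), a call lost in 4 of 8 alternatives. RPC and KP1 differ in line, stage and genotype, which cannot be told apart.

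Captures of 10 cells carry differences between cell groups that pooled material averages away, so a gene that varies between captures should spread more in them than in pools. For Nov the mean absolute deviation from the group median on the log2(CPM + 1) scale was 0.66 in spheroid captures and 0.56 in spheroid pools, a difference of 0.10 with a 95% interval of -0.25 to 0.44 (limma, adjusted p = 0.97). In nude livers the deviations were 1.52 and 1.58, a difference of -0.06 (-0.63 to 0.50, adjusted p = 0.94). In F1 livers they were 1.41 and 1.22, a difference of 0.20 (-0.60 to 1.00, adjusted p = 0.84). With deviations taken from the median of each ERCC set, an alternative added after seeing the data, they were 0.65 in spheroid captures and 0.31 in spheroid pools, a difference of 0.33 with a 95% interval of 0.01 to 0.65 (limma, adjusted p = 0.86). By set, the captures had 362 ± 344 and 480 ± 323 CPM and the pools 232 ± 72.4 and 552 ± 147 CPM, so that the SD was larger in captures within both. In F1 livers deviations within the Rpl19-ps11 sets differed by -0.04 (-0.85 to 0.76, adjusted p = 0.98). No condition passed the test over all genes, and the difference in spheroids was larger with deviations taken within the sets. The test called 0 of 8602 genes in spheroids (508, or 5.91%, at an unadjusted p under 0.05), 0.777% of 9397 in nude and 1.48% of 8759 in F1 livers. Mean levels in captures and pools were 27.2 and 11.9 CPM in nude livers, 442 and 456 CPM in spheroids and 8.88 and 5.84 CPM in F1 livers, with overlapping ranges in each.

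Across libraries of a group, Nov was set against the number of genes detected, the total count, and the neuroendocrine sum, in liver libraries also the hepatocyte sum, and in liver and RPC libraries the ERCC share, 30 relations in all. No relation with the neuroendocrine sum (7 groups) or the hepatocyte sum (4 groups) passed after adjustment. In F1 captures Nov was lower where the ERCC share was higher (r = -0.55, rho = -0.56, permutation adjusted p = 0.0226 and 0.0203), with r = -0.47 without the 2 most extreme libraries and -0.53 within the 26 high Rpl19-ps11 libraries. F1 pools gave the same direction (r = -0.70, rho = -0.60, permutation adjusted p = 0.0177 and 0.0203; -0.49 without 2; -0.66 within the 19). F1 captures with more genes detected had more Nov (r = 0.53, rho = 0.52, permutation adjusted p = 0.0240 and 0.0203; 0.41 without 2; 0.47 within the 26). In spheroid pools the relation with genes detected had r = 0.62 and rho = 0.55 (permutation adjusted p = 0.0245 and 0.0609), but r was 0.56 within the 14 low ERCC pools and -0.85 within the other 6. In F1 pools Nov was also higher where the total count was higher (r = 0.56, rho = 0.61, permutation adjusted p = 0.0245 and 0.0203; 0.48 without 2; 0.57 within the 19). With genes detected their rho was 0.56 and r 0.41 (permutation adjusted p = 0.0278 and 0.159; r = 0.37 without 2; 0.43 within the 19). The part of these measures in the host and liver differences was not tested.

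The other 5 members were close to absent from the small libraries, and all 5 failed the filter on low counts in each of the 7 comparisons, so none was tested. Ctgf, a matrix-inducing factor downstream of TGF-beta and YAP, had 1 count in all 195 small libraries, in an F1 liver capture. It had none in 28 spheroid captures, which allows up to 0.0241 CPM over the group (3 counts, counting error only), nor in 33 nude liver captures, which allows 0.0329 CPM. In bulk it stood at 0.29 CPM in KP1, 0.58 in KP3, 0 in KP5 and 1.04 in KP2.

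Cyr61, an immediate early gene and integrin ligand, had counts in 3 of 195 small libraries, all from nude livers. One nude liver capture held 96.4 CPM (102 counts), another 1.46 CPM, and 1 nude liver pool 159 CPM (478 counts). The other 31 captures and 34 pools of nude livers had none. The capture with 96.4 CPM had the second highest sum of 12 stellate, fibroblast and mural markers among the 33 nude liver captures (744 CPM, group median 246). It also had the highest sum of 6 cholangiocyte markers (408 CPM), and its Nov was 22.7 CPM. The cholangiocyte sum does not mark cholangiocytes in this line: KP1 spheroid captures reached 512 CPM (median 56.6, against 34.7 in nude liver captures). Without Des, which KP1 cells hold themselves (149 CPM in bulk KP1), a choice made after seeing the data, the stellate sum was 613 CPM and still ranked 2nd. The other 11 markers also summed to 406 CPM in bulk KP1 and to at most 221 CPM in KP1 spheroid captures. The pool with 159 CPM ranked 14th of 35 in the stellate sum (277 CPM), of which Des made up 258 CPM, and 2nd in the erythrocyte sum. The part of those cells in the Cyr61 counts was not tested. In bulk Cyr61 ran from 0.033 CPM in KP5 to 0.87 CPM in KP2, on 1 to 37 counts.

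Wisp1, a secreted protein induced by Wnt signalling, had counts in 9 of 195 small libraries. All 9 were from livers: 4 nude captures, 2 nude pools, 2 F1 captures and 1 F1 pool. An F1 capture held 141 CPM (517 counts) and a nude capture 58.7 CPM (164 counts), and the other 7 had at most 2.11 CPM. The F1 capture had the highest stellate sum of 31 without Des (742 CPM, group median 52.8) and ranked 6th in the macrophage sum. Those 11 markers summed to 406 CPM in bulk KP1 and to at most 221 CPM in KP1 spheroid captures. The nude capture had 472 CPM of Des and no count in the other 11 stellate markers, and ranked 7th of 33 in the erythrocyte and 8th in the endothelial and cholangiocyte sums. The part of those cells in the Wisp1 counts was not tested. Nov was low in both, at 0.82 and 2.86 CPM. The F1 capture is one of the 5 with low Rpl19-ps11. In the 28 KP1 and 24 RPC spheroid captures Wisp1 had no count, and in bulk 1 count each in KP1 and KP2.

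Wisp2, which lacks the C-terminal module, was scattered over 18 small libraries of 6 groups at up to 10.5 CPM. It reached 10.5 CPM (50 counts) in a spheroid capture whose Nov was 303 CPM and 10.5 CPM (34 counts) in a nude liver pool. None of 31 F1 captures had a count. Wisp3, tied to skeletal growth and cartilage, was in 14 small libraries, with at most 1.05 CPM in all but 1 RPC capture of 14.3 CPM (70 counts). In bulk it had the highest level per kilobase of the 5 in each line, at 3.13 CPM in KP1, 1.51 in KP3, 1.22 in KP5 and 0.99 in KP2. Its overlap with Tube1 applies to each of these values.

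**Figure D4:**
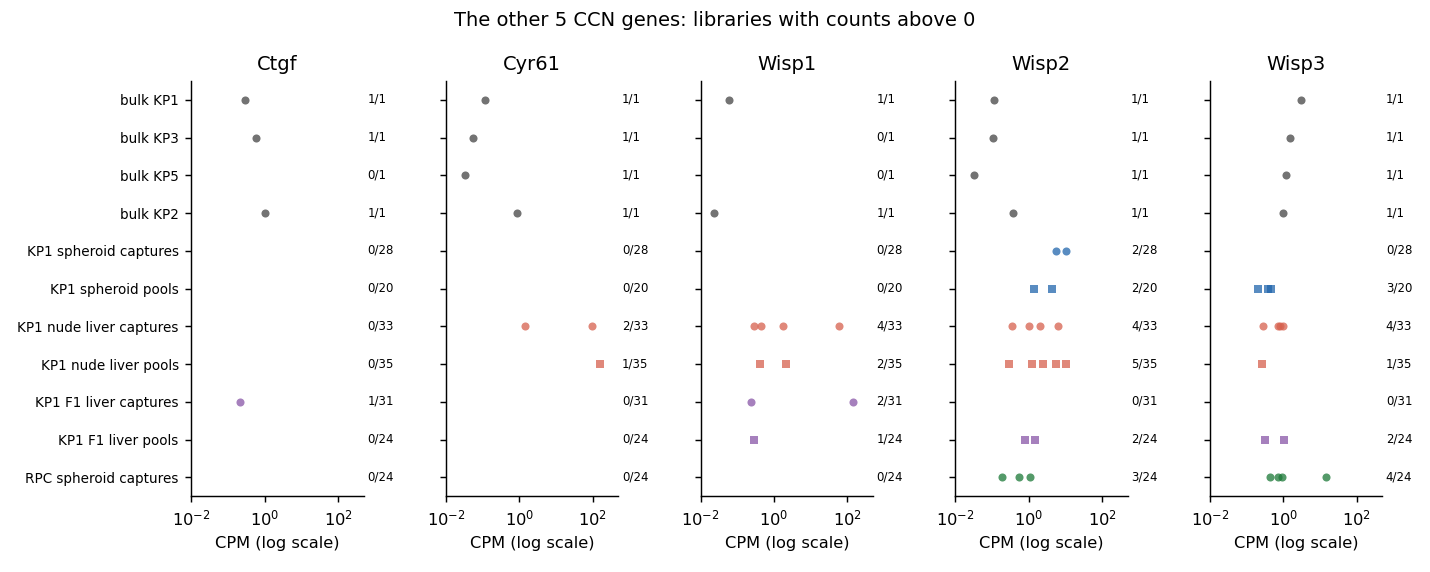
CPM on a log axis of Ctgf, Cyr61, Wisp1, Wisp2 and Wisp3 in each library with a count above 0, by group; numbers at the right of each panel give libraries with counts of all libraries. Counts above 50 CPM occur only in 4 liver libraries, for Cyr61 (96.4 and 159 CPM) and Wisp1 (58.7 and 141 CPM).

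Of 28 genes of the YAP, TAZ and TEAD list, 4 to 8 passed the filter in a comparison. Ankrd1 and Axl, classical targets, had no count in KP1 spheroid captures or pools, and Yap1 averaged 0.33 CPM in spheroid captures and 0.59 CPM in bulk KP1. In nude liver captures 1 of 5 tested genes rose and 2 fell, where 34.1% of all genes were called, and the list median was -0.13 beside -0.04 over all genes. Vgll4, a TEAD cofactor that competes with YAP, rose from 13.1 ± 40.6 to 116 ± 91.1 CPM (log2 fold change 2.98, SE 0.71, edgeR adjusted p = 0.00061). Lats1, the kinase that restrains YAP, fell from 28.2 ± 38.1 to 5.09 ± 6.04 CPM (-2.77, SE 0.52, edgeR adjusted p = 1.45e-05). Nt5e, the ecto-nucleotidase CD73 and a YAP target, fell from 27.3 ± 38.3 to 5.96 ± 20.6 CPM (-2.27, SE 0.66, edgeR adjusted p = 0.0050). In F1 liver captures, where 12.6% of genes were called, Nt5e (-5.85, SE 0.76) and Lats1 (-3.09, SE 0.60) fell and Asap1, an Arf GTPase activator, rose (2.46, SE 0.64) among 5 tested. In RPC captures, where 21.9% were called, Nt5e (-7.56, SE 0.78) and Lats1 (-1.83, SE 0.49) fell and Amotl1, an angiomotin that binds YAP, rose (3.45, SE 0.86) among 7. Lats1 and Nt5e were thus called lower, with Nov lower beside them, in each of the 3 comparisons with KP1 spheroid captures, which share those captures. Pools of nude livers, where 25.6% were called, had Ajuba (3.85, SE 0.55), Vgll4 (5.38, SE 0.78) and Yap1 (4.67, SE 0.78) higher and Nt5e lower (-2.27, SE 0.86) among 8; in F1 liver pools, with 11.6% called, Vgll4 rose (4.73, SE 1.11) and none of the other 5 was called. Between the hosts Vgll4 was lower in F1 captures (-1.53, SE 0.58, 1 of 4 tested, where 19.2% were called), and none of 6 was called in the pools, where 12.0% were. Of the 15 calls in this list, Nt5e in F1 and RPC captures and Ajuba held in each alternative in which they were fitted. With only the 9 spheroid captures of at least 0.1% ERCC, Nt5e and Vgll4 lost their calls in nude, Lats1 and Asap1 in F1, and Lats1 and Amotl1 in RPC captures. With the hepatocyte score in the model, which nearly splits nude from spheroid captures, Vgll4 and Lats1 were not called in nude captures. Asap1 lost its call in 5 of 12 alternatives and Nt5e in nude pools in 5 of 10. Without 1 nude pool of 395 CPM the mean of Yap1 went from 17.9 to 6.84 CPM, and its fold change was 3.44 (SE 0.56). The Yap1 call was lost with the hepatocyte score and against the spheroid pools of at least 0.1% ERCC alone. Vgll4 in nude pools was lost with the hepatocyte score too.

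Receptors and cell-surface partners of CCN proteins were mostly below the filter, with 4 or 5 of 19 tested in a comparison. Itgav, the integrin subunit shared by several CCN receptors, had no count in spheroid captures or pools and averaged 0.21 CPM in nude and 0.53 CPM in F1 liver captures. Notch1 averaged 0.085 CPM in spheroid captures and 0.35 CPM in bulk KP1. Fgfr2 fell from 19.6 ± 32.5 CPM in spheroid captures to 1.85 ± 4.75 CPM in nude liver captures (-3.69, SE 0.78, edgeR adjusted p = 0.00011), the 1 call among 5, where 34.1% of all genes were called and 16.3% lower. With the hepatocyte score in the model it was not called. Lrp6, a Wnt co-receptor, was higher in nude liver pools (2.58, SE 0.57), 1 of 2 calls among 5 where 16.5% of all genes were called higher. In F1 liver pools it was the 1 call among 5 (3.71, SE 0.88; 8.94% called higher), but without 1 pool of 566 CPM its mean went from 32.3 to 9.11 CPM, its fold change to 1.65 and its edgeR adjusted p to 0.071. The other call in nude liver pools was Cd44, a hyaluronan receptor (3.61, SE 1.35). It rested on few libraries: 17 of 35 nude pools had counts, with a median of 0 and a highest value of 2101 CPM, against 11 of 20 spheroid pools with a median of 0.29 CPM, and without that highest pool Cd44 did not pass the filter. Of 10 growth factors that CCN proteins bind or act with, at most 2 were tested. Bmp7 was higher in F1 than in spheroid captures (24.0 ± 83.5 against 4.93 ± 6.81 CPM; 2.95, SE 0.94, edgeR adjusted p = 0.0271), 1 call of 2 tested where 7.73% of all genes were called higher. The medians were 1.07 and 0.85 CPM, and 1 F1 capture held 464 CPM. Without it the F1 mean was 9.34 CPM and Bmp7 did not pass the filter. Igf2 fell in RPC captures, where 1 of 24 had a count, against 14.2 ± 20.6 CPM in KP1 captures, 27 of 28 with counts (edgeR adjusted p = 5.96e-17), the 1 gene of that list tested, where 11.6% of all genes were called lower.

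Among 22 other matricellular and matrix-associated secreted genes, 5 to 7 were tested in a comparison. In nude liver captures 1 of 6 rose and 2 fell (17.7% and 16.3% of all genes), in RPC captures 1 of 7 rose and 3 fell (10.3% and 11.6%), and in nude liver pools 2 of 7 rose and 1 fell (16.5% and 9.13%). Igfbp5, an IGF-binding protein, fell from 107 ± 73.4 CPM in spheroid captures to 27.3 ± 27.1 CPM in nude liver captures (-2.15, SE 0.37, edgeR adjusted p = 2.70e-06) and to 32.7 ± 30.7 CPM in RPC captures (-1.99, SE 0.33, edgeR adjusted p = 2.55e-06). It also fell in nude liver pools (-1.78, SE 0.54). Thbs4, a thrombospondin, fell in nude liver (-2.19, SE 0.71) and RPC captures (-2.95, SE 0.80), and Smoc1, a basement membrane protein, in RPC captures (-6.04, SE 0.90). Igfbp4 rose instead, from 0.70 ± 1.26 to 17.6 ± 23.5 CPM in nude liver captures (4.64, SE 0.64, edgeR adjusted p = 1.52e-08), and was higher in nude liver pools (4.57, SE 0.64). Without 1 nude pool of 293 CPM its mean there went from 21.8 to 13.8 CPM and the fold change to 4.07 (SE 0.55). Sparc, a collagen-binding matricellular protein, rose from 0.068 ± 0.23 to 36.9 ± 136 CPM in nude liver pools (8.63, SE 1.32, edgeR adjusted p = 3.77e-07). Spheroid pools had counts in 2 of 20, so the size of this fold depends on a group near 0. Without 1 nude pool of 794 CPM the nude mean was 14.6 CPM (median 3.88) and the fold change 7.28 (SE 1.11). In the same comparison Pecam1 (4.54, SE 0.62) and Vwf (3.78, SE 0.55), of the endothelial list, rose. Both also had counts in spheroid pools, Pecam1 in 15 of 20 (0.47 ± 0.53 CPM) and Vwf in all 20 (5.23 ± 4.72 CPM). The summed endothelial markers were 10.3 to 954 CPM in nude liver pools, with 8 of 10 genes counted and Cdh5 and Lyve1 at 0, against 0.82 to 30.4 CPM in spheroid pools. The stellate list holds Des, which had counts in all 20 spheroid pools (60.5 ± 49.4 CPM) and so does not mark stellate cells in this line; the other 11 summed to 0 to 194 CPM in nude liver pools, with all 11 counted, against 0.43 to 149 CPM in spheroid pools and 406 CPM in bulk KP1. The part of these cells in the changes of Sparc and Igfbp4 was not tested. Igfbp2 was higher in RPC captures (4.69, SE 0.81). Against nude liver captures, F1 captures had more Sparc (2.46, SE 0.79) and Igfbp5 (1.40, SE 0.46) and less Igfbp4 (-3.45, SE 0.59), as well as less Pecam1 (-3.14, SE 0.55), and F1 pools had less Igfbp4 (-1.67, SE 0.59, edgeR adjusted p = 0.0494). The last call was lost without 1 nude pool of 293 CPM (-1.09, edgeR adjusted p = 0.16), and with the 5 low Rpl19-ps11 F1 pools alone the log2 fold change turned to 0.084. Sparc in F1 against nude captures lost its call in 4 of 10 alternatives. Of the 14 calls in this list 7 held in each alternative fitted, among them Igfbp4 in nude captures and pools and Igfbp5 in nude and RPC captures. In F1 liver captures and pools against spheroids edgeR called 0 of 5, where 12.6% and 11.6% of all genes were called.

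Of 14 Notch pathway readouts, 1 or 2 passed the filter. Hes6, a bHLH factor that antagonises Hes1 and is high in neuroendocrine cells, was called higher in all 4 liver against spheroid comparisons, with log2 fold changes of 1.35 and 1.45 in nude and F1 captures and 1.18 and 1.45 in the pools. It was the 1 gene of the list tested in each, where 17.7% and 7.73% of all genes were called higher in captures and 16.5% and 8.94% in pools. Each of these calls was lost against the spheroid libraries of at least 0.1% ERCC alone. Those in nude captures, F1 captures and nude pools were also lost with the hepatocyte score in the model. Of 10 Wnt readouts at most 2 were tested in a comparison. Both of these, Lef1 (5.32, SE 0.87) and Lgr5 (2.48, SE 0.82), were called higher in nude liver pools than in spheroid pools, where 16.5% of all genes were, and lower in F1 than in nude liver pools (-2.07, SE 0.70; -2.17, SE 0.67), where 3.79% were. Without 1 nude pool of 385 CPM neither Lgr5 call was left (1.03 and -0.59, edgeR adjusted p = 0.22 and 0.44), and Lef1 was not called in nude pools with the hepatocyte score in the model. The neuroendocrine markers, set here beside Nov because they mark the tumour cells, had a list median of -0.78 in nude and -0.36 in F1 liver captures, beside medians of -0.04 and 0.22 over all genes. Of 9 tested, 5 fell in nude captures, where 16.3% of all genes fell, and 4 in F1 captures, where 4.91% fell. Calca, the calcitonin and CGRP gene, fell from 120 ± 84.5 CPM in spheroid captures to 20.9 ± 43.0 CPM in nude (-2.63, SE 0.55) and 5.86 ± 12.0 CPM in F1 captures (-4.22, SE 0.67). Insm1, a zinc finger factor of neuroendocrine cells, fell in both (-1.94, SE 0.50; -1.67, SE 0.49), and Chga, a granin of secretory granules, in F1 captures (-0.89, SE 0.26). Uchl1, a neuronal deubiquitinase, averaged 777 ± 269 CPM in spheroid captures, 505 ± 297 CPM in nude and 1029 ± 509 CPM in F1 captures. It was called lower in nude captures (-0.85, SE 0.22) and higher in F1 captures against spheroid (0.70, SE 0.18; 7.73% of all genes) and against nude captures (1.57, SE 0.23; 11.2% of all genes). With the hepatocyte score in the model, which nearly splits nude from spheroid captures, the calls of Calca, Uchl1 and Insm1 in nude captures were lost. The calls of Insm1 and Chga in F1 captures were lost with it too. The Uchl1 call in F1 against spheroid captures was lost with the 9 spheroid captures of at least 0.1% ERCC (0.51) and with the 5 low Rpl19-ps11 captures (0.84), and so were those of Insm1 and Chga. Calca in F1 against spheroid captures held in each of 12 alternatives and Uchl1 in F1 against nude captures in each of 10.

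In the pools 2 of 9 markers fell in nude livers, and 3 of 9 fell and 1 rose in F1 livers. Calca was lower in nude (-5.60, SE 0.74; 9.13% of all genes) and F1 livers (-5.02, SE 0.88; 2.65%) than in spheroids, and Insm1 in F1 livers (-3.18, SE 0.71). Uchl1 was higher in F1 pools than in spheroid (0.88, SE 0.30, edgeR adjusted p = 0.0472) and nude pools (1.69, SE 0.31), and Chgb, another granin, higher in F1 than in nude pools (2.00, SE 0.60; 8.20% of all genes). In RPC against KP1 spheroid captures 2 of 10 markers rose and 5 fell, where 10.3% and 11.6% of all genes did. Scg2, a secretogranin (3.46, SE 0.87), and Ncam1, a cell adhesion molecule (1.37, SE 0.35), were higher, and Chga (-2.38, SE 0.23), Calca (-5.44, SE 0.67) and Chgb (-1.51, SE 0.35) lower. Except for Ncam1, these RPC calls held in each of 9 alternatives; Ncam1 was lost with the 9 spheroid captures of at least 0.1% ERCC. In the pools the call of Calca in nude livers held in each of 10 alternatives. The other calls named in pools were lost in 1 to 7 of 10 or 12.

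Of 13 protein-coding genes that start within 1 Mb of Nov, 1 to 5 were tested in a comparison. The only one called was Mrpl13, a mitochondrial ribosomal protein gene 788 kb away, lower in nude liver captures (-0.65, SE 0.26, edgeR adjusted p = 0.0422) and in RPC captures (-0.68, SE 0.24, edgeR adjusted p = 0.0310). In the same comparisons Taf2, 269 kb away, had -0.33 (SE 0.67) and 1.37 (SE 0.57), with adjusted p of 0.74 and 0.077. The Mrpl13 calls were 1 of 3 tested where 34.1% of all genes were called and 1 of 5 where 21.9% were, and each was lost in 4 alternatives, RLE scaling and DESeq2 among them.

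Within the 28 spheroid captures, Nov ranged 12.9-fold, and each gene's counts were fitted on log2(CPM + 1) of Nov. At an adjusted p under 0.05, 64 of 8182 genes were called, 0.782%, of which 59 rose with Nov, 0.721% of those tested. The calls rested on few libraries: without the captures of 1507 and 1235 CPM, the 2 farthest from the Nov median, edgeR called 0 of 8022 genes, and limma-voom called 0 on all 28, whereas DESeq2 called 155 on all 28. With the ERCC set in the model edgeR called 19 genes, and with total count and genes detected 8. Of the 60 called genes tested without those 2 captures, 55 kept the sign of their slope. Ythdc1, a reader of m6A in nuclear RNA and the gene with the smallest p, chosen here after its values were seen, had a slope of 2.26 log2 units per log2 unit of Nov (SE 0.33, edgeR adjusted p = 0.00033). Without the 2 captures its slope was 1.32 and its adjusted p 0.60. Spheroid pools average groups of 10 cells, but come from an unknown number of pools, which may differ. In them the same fit called 157 of 7743 genes (2.03%), of which 9, 0.116%, rose with Nov. None of these calls was left with the ERCC set in the model. No gene was called in both captures and pools, out of 57 capture calls tested in pools, of which 44 had the same sign of slope there. No member, and no gene of the lists above, was called in the captures.

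Ranked by Spearman's rho over the 28 captures, no gene passed a permutation test after adjustment over 8182 genes (smallest adjusted p = 0.365), and 7.47% had an unadjusted p under 0.05. The values that follow describe the genes at the ends of that ranking among those of at least 10 CPM, and the libraries behind them share depth and the ERCC sets. Srsf2, a splicing factor, stood highest with rho = 0.67 and r = 0.61 (permutation p = 0.00018 and 0.00063, both above 0.05 after adjustment), and kept r = 0.53 without the 2 extreme captures. Its rho was 0.63 within the 9 captures with at least 0.1% ERCC and 0.58 within the other 19. Next came Hsf2, a heat shock factor (rho = 0.65), C1galt1, which extends O-glycans (0.64), Ufd1, a p97 cofactor (0.62), Ckap2l, a spindle protein (0.62), Hnrnph1 (0.62) and Hnrnpk (0.62), which bind RNA, and Trip13, a mitotic checkpoint ATPase (0.62). Of these 8, the 1 called by the edgeR fit was C1galt1 (slope 1.39, SE 0.35, edgeR adjusted p = 0.0423). At the other end were the pseudogene Gm15427 (rho = -0.61), Trmt112, a methyltransferase cofactor (-0.59), and Mea1 (-0.58). In the 9 captures with at least 0.1% ERCC these 3 had rho of -0.80 to -0.95, and in the other 19 of -0.29 to -0.41. Their rho was thus further from 0 in the 9 than in the 19.

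**Figure D5:**
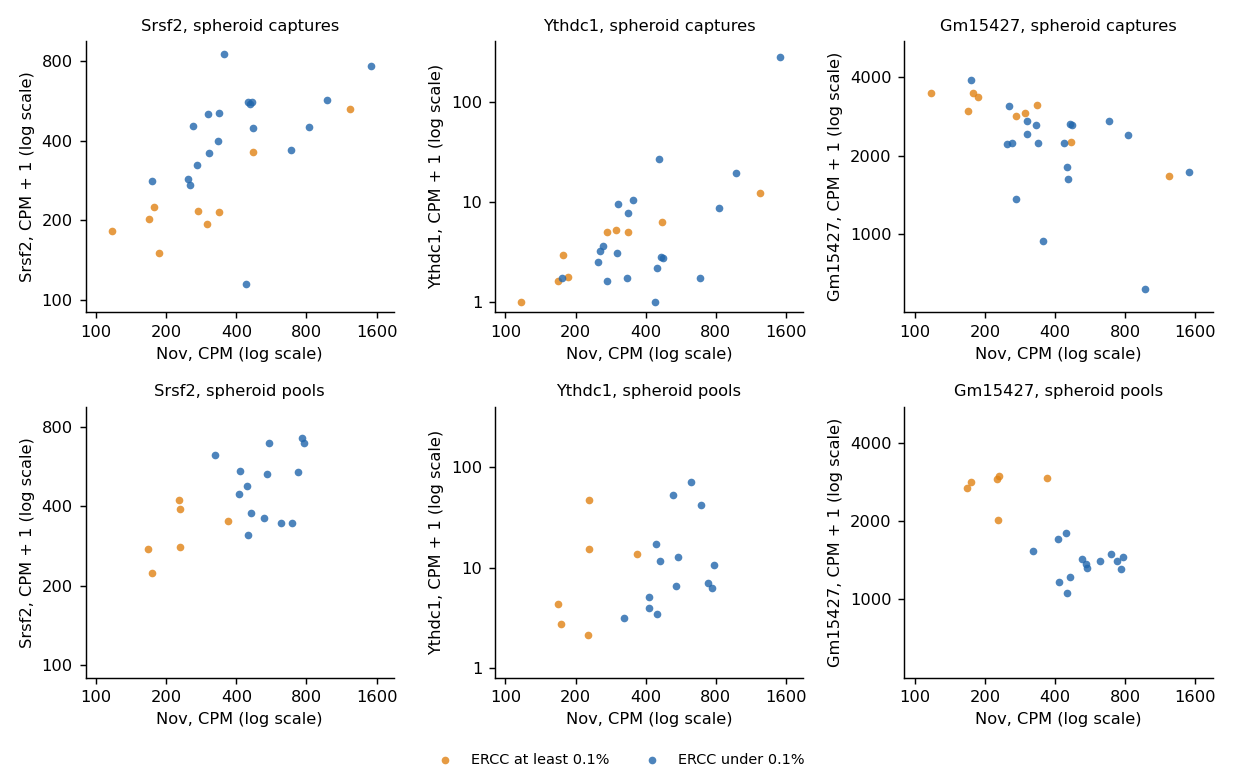
CPM + 1 of Srsf2, Ythdc1 and Gm15427 against Nov CPM, both on log axes, in 28 spheroid captures (top) and 20 spheroid pools (bottom); colours mark the share of ERCC counts. For Ythdc1 the capture with the most Nov (1507 CPM) stands far from the others, and in the pools the 2 ERCC sets do not overlap in Gm15427 and overlap by 1 pool of the 6 in Nov.

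Over the means of the 11 groups (7 of small libraries and 4 bulk lines), the 5 genes whose log2(mean CPM + 1) was most like that of Nov, out of 7663 genes with a group mean of at least 50 CPM, were Kntc1 (Pearson r = 0.98), a kinetochore protein, 9330159F19Rik (0.98), Sptan1 (0.98), which encodes alpha spectrin, Trim35 (0.97) and Pcid2 (0.97). The bulk lines weigh on this ranking, since the protocols differ, and over the 7 groups of small libraries alone r was 0.95 to 0.98. Kntc1 averaged 113 ± 105 CPM in spheroid captures, 32.1 ± 75.8 in nude liver, 29.2 ± 44.4 in F1 liver and 50.2 ± 65.0 CPM in RPC captures.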

How the data were processed

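The authors deposited 1 table of expected counts, estimated read counts per gene and library, not scaled between libraries; RSEM and Bowtie2 and the builds GRCh38.p12 and GRCm38 are named, with no role, in the submitters' processing notes. Of the 31581 genes, 31345 were found in GENCODE M21, 92.65% with the same coordinates. Values were rounded (89.31% were whole), 92 ERCC rows were left out, and CPM was taken over the rest. Each comparison used only its 2 groups in edgeR 4.0.16 (TMM, filterByExpr, quasi-likelihood F test, Benjamini-Hochberg over all genes tested, called under 0.05). Spread was tested with limma 3.58.1 on genes of at least 5 CPM. Single values were tested with exact or 100000-draw permutation tests, two-sided. No 2 libraries of a group agreed within sampling noise. Members, lists and tests were chosen with earlier results of these data known. From each list of related genes and of neuroendocrine markers the called genes were named, at most 4 per direction by adjusted p; markers of other cell types are named only beside a result they move with; covariation names the 8 highest and 4 lowest rho; items named by these rules that are withheld are not reported here. Ankrd1, Axl, Yap1, Itgav, Notch1, Taf2 and Ythdc1 were named in addition, after their values were seen, and the ERCC and Rpl19-ps11 sets were defined from the values. Alternatives changed the scaling, filter, tool, covariates and library sets. The scripts were tested on simulated data. Replicate numbers did not pair libraries (processing alternatives stand in the closing section).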

Additional observations from a re-analysis of the deposited data

How the results depend on the processing

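Numbers of genes called moved with the filter on low counts: without it edgeR called 8431, 5072, 6294 and 6115 genes in the nude, F1, F1 against nude and RPC captures and 7888, 5224 and 5857 in the nude, F1 and F1 against nude pools, against 2669, 924, 1358, 1881, 2054, 840 and 721 with it. A minimum of 5 CPM gave 1412 in F1 pools and 1706 in F1 against nude pools. With the hepatocyte score in the model the counts were 984 (nude captures), 1028 (nude pools), 1359 (F1 pools) and 307 (F1 against nude pools). Limma-voom called 1747 (F1 captures), 3096 (RPC), 4791 (nude pools) and 3355 (F1 pools). Against spheroid libraries of at least 0.1% ERCC alone, 174 (F1 captures), 776 (nude pools) and 22 (F1 pools) were called, with fewer samples. F1 libraries of low Rpl19-ps11 alone gave 379 and 223 in captures (against spheroid and nude) and 1890 and 295 in pools.

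Replicate numbers did not pair libraries: the median correlation of same-numbered libraries was -0.004 to 0.005, and 0 to 3 per comparison correlated best with their own number. With the replicate block 887 genes were called in F1 against nude captures, 1837 in F1 pools and 179 in F1 against nude pools, and Nov in F1 captures was -7.18; Nov did not pass the filter in the blocked fit of F1 against nude pools.

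Nov was lower in every liver against spheroid and RPC setting. In F1 captures it was -4.06 with the 5 low Rpl19-ps11 libraries. Against nude captures those gave 0.24. In pools Nov was -4.59 (SE 2.26) in nude livers with the hepatocyte score and -5.08 (SE 1.28) in F1 livers with 6 spheroid pools. Other fits gave lower values: -6.59 by limma-voom and -6.27 with the replicate block in nude pools, and -8.60, -9.35 and, with the hepatocyte score, -8.24 in F1 pools. F1 against nude pools gave -1.97 (SE 0.71) by limma-voom and 0.36 (SE 1.24) with the hepatocyte score; the cause was not tested. Nov by TMM-scaled CPM was 1080 (KP1), 1062 (KP3), 678 (KP5) and 567 (KP2). Its mean was 232 CPM in the 6 spheroid pools and 31.8 CPM in the 5 F1 captures of their own sets.

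Scaling moved the share of calls that were higher from 64.4% (TMM) to 54.0% (RLE) in nude pools. The median of all genes there went from 0.16 to -0.06. In RPC captures the share went from 46.9% to 57.8% and in F1 pools from 77.1% to 69.1%. In nude pools, RPC captures and F1 pools limma-voom gave 26.9%, 66.0% and 11.9%. In nude captures it gave 45.4% (TMM 52.1%) and in F1 captures 23.8% (61.1%). In F1 against nude it gave 34.3% in captures (58.5%) and 27.0% in pools (68.4%). In each comparison the direction with more calls was thus the other one by limma-voom.

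Spread calls were 24 in spheroids, 385 in nude and 1094 in F1 livers with deviations from the group mean, 8 and 55 in nude and F1 livers with log2(CPM + 5), and 8 in nude livers at 20 CPM or more. The Nov difference was 0.20 in nude livers with log2(CPM + 5) and -0.080 in F1 livers with the group mean. Deviations from the median of each set, added after seeing the data, gave 45 calls and -0.043 for Nov in F1 livers. Covariation in captures gave 792 calls without a filter, 155 by DESeq2, 0 by limma-voom, 19 with the ERCC set, 8 with total and genes detected, 0 without 2 libraries and, chosen after seeing the data, 34 in low ERCC captures; in pools 1017, 385 by DESeq2, 0 with the ERCC set, 28 with total and genes detected and 0 in low ERCC pools.

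Single genes that changed sign were Hba-a2 (-0.37) and Hba-a1 (-0.70) in F1 against nude captures and Igfbp4 (0.084) in the pools, all with low Rpl19-ps11 libraries, and Trmt112 (slope 0.037) in low ERCC captures. Of the other values of single genes 1000 kept direction and side of the threshold, 155 lost their call and 8 gained one. Of the calls named above, 12 of 15 in the YAP list, 4 of 4 among receptors and 1 of 2 growth factors were lost at least once. So were 7 of 14 matricellular, 4 of 4 Notch, 4 of 4 Wnt and 12 of 19 neuroendocrine calls, and both Mrpl13 calls. Neuroendocrine calls that are not named are not counted here. In those lists most often lost were Uchl1 in F1 pools (7 of 12 alternatives), then Asap1 in F1 captures, Hes6 in F1 pools, Nt5e in nude pools and Lgr5 in F1 against nude pools (5 each). Refits without the library highest in a gene were added after seeing the data. Depth limits the other members: 3 counts per group of small libraries are 0.0221 to 0.0345 CPM.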
